A study of Mus musculus with 23 samples.

Results

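Polyamine metabolism was followed through 10 genes chosen by symbol, Odc1, Amd1, Amd2, Srm and Sms for synthesis, Smox, Sat1 and Paox for breakdown, and Oaz1 and Azin1 for the control of ornithine decarboxylase. Of these 10 genes, 7 were rows of both count tables (Odc1, Srm, Sms, Smox, Sat1, Paox and Azin1), among 12831 genes listed for quadriceps and 16962 for epididymal fat. Amd1, Amd2 and Oaz1 were rows of neither table and were not analysed here. The tables came from 23 libraries, from male C57BL/6J mice operated on at 8 weeks of age. The muscle and fat libraries carry different sample codes, and the labels do not say whether any share an animal. No tumor mice had sham surgery (3 quadriceps and 4 fat libraries). KPC mice received into the pancreas a clone of a mouse pancreatic cancer line, from a tumor model driven by Pdx1-Cre, that had been transfected without a targeting guide (4 libraries per tissue). KPC IL6KO mice received a clone of the same line in which Il6 had been edited by CRISPR/Cas9 (4 libraries per tissue). The edit was in the tumor cells and not in the mice, each tumor group rests on 1 clone, and all mice were killed when any group reached a set limit of weight or fat loss.

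Polyamines are small positively charged molecules that bind nucleic acids and are needed for translation and growth. Ornithine decarboxylase (Odc1) makes putrescine, and the spermidine and spermine synthases (Srm and Sms) extend it with aminopropyl groups that S-adenosylmethionine decarboxylase (Amd1 and Amd2) supplies. Spermine oxidase (Smox) turns spermine back into spermidine, whereas spermidine/spermine acetyltransferase (Sat1) and polyamine oxidase (Paox) act one after the other, and in skeletal muscle spermine oxidase is known to be repressed in several forms of atrophy.

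The members that moved furthest in KPC muscle in each direction are Smox, at chr2:131491496-131525922 on the forward strand, and Sat1, at chrX:155213132-155216449 on the reverse strand (GENCODE M21 annotation of GRCm38). Promoter sequence from RefSeq (GRCm38.p6) is shown for these 2 genes, 5′ to 3′ on the gene's own strand, with each GC box (GGGCGG on either strand) in capitals. The 2 annotations place some starts differently. For Smox the 250 bases before the RefSeq start, chr2:131491612-131491861, lie inside the GENCODE gene, and the stretch shown is chr2:131491654-131491763, the longest part of them in no GENCODE exon. For Sat1 the whole 250 bases, chrX:155216450-155216699, are shown, and they end where the GENCODE gene begins.
Smox: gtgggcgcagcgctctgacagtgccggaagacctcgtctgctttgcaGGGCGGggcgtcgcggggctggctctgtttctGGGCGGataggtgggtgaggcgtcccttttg
Sat1: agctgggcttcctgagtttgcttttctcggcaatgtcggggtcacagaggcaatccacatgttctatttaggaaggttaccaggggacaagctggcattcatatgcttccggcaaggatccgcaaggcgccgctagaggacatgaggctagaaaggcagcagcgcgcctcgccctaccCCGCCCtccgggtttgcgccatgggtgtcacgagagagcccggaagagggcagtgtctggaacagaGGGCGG

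The whole 250 bases before the RefSeq start held 6 GC boxes for Smox, 4 for Odc1 and 2 for Sat1. Of the members without counts here, Amd1 had 1 GC box, and Amd2 and Oaz1 had 0. One of the RefSeq starts of Paox had 1 GC box and the other 3. One Sms start had 0 and the other 4. The Odc1 window (chr12:17544623-17544872) runs past the GENCODE start of the gene, and both Paox windows and the Sms window with GC boxes lie inside the GENCODE genes. Matches that overlap each other were counted separately, and 32.7% of the 32851 promoters in the table hold at least 1 GC box. An E-box (CACGTG, the letters bound by Myc and Max) occurred only before one Sms start, at position -196, where 6.02% of all promoters hold one. No member's window held TTCNNNGAA, a STAT motif found in 7.02% of promoters, or TGACGTCA, the cyclic AMP response element found in 1.55%. These are matches of letters only. Sequence outside these windows was not searched, and Srm and Azin1 are not covered.

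In quadriceps, counts summed to between 19259763 and 74907810 a library. The lowest count of a listed member in any muscle library was 65 (Paox in no tumor 3), so each level rested on more than the 3 counts taken as not distinguished from 0. The 6 muscle markers (Ckm, Acta1, Mb, Tnnt3, Myh4 and Mylpf) were all listed, and no epididymis, sperm or exocrine pancreas marker was. Values below are counts per 1000000 counts of a library (CPM), scaled to the TMM-normalized library size. A gene was called where the Benjamini-Hochberg FDR over all genes of the table was at most 0.05 and the fold change (FC) at least 1.5.

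Per length, Smox was the most abundant member in no tumor muscle, at 116 ± 20 CPM per kilobase of annotated exon (SD, n = 3). Odc1 followed at 37.8 ± 6.87, Sms at 11.7 ± 1.53, Srm at 6.91 ± 0.432, Azin1 at 4.62 ± 0.268, Sat1 at 4.25 ± 0.573 and Paox at 0.723 ± 0.0867 CPM per kilobase. Azin1 and Sat1 were the only neighbours in this order that lay within 1 SD of each other. In KPC muscle, Odc1 stood first at 68.4 ± 15.5 CPM per kilobase (n = 4), Smox had dropped to 17.6 ± 1.49, and Srm (13.3 ± 2.78), Sat1 (11.7 ± 3.03) and Sms (11.3 ± 2.83) lay within 1 SD of each other. KPC IL6KO muscle again had Smox first, at 157 ± 48.7 CPM per kilobase.

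The first comparison asked how polyamine genes differ in the muscle of mice with a wasting tumor. In KPC muscle, 4 of the 7 members rose (Odc1, Srm, Sat1 and Paox), Smox fell, and Sms and Azin1 were not called. The background for this count was high. In the same comparison 55.7% of all 12831 genes were called, 26.7% up and 29% down, and the median log2 FC was 0.86 over the 7 members and -0.03 over all genes. The CPM of the KPC and no tumor groups did not overlap for 5 of the 7 members, against 65.3% of all genes. Without the limit on FC, the same 5 members and 67.6% of all genes passed an FDR of 0.05, and DESeq2 and the likelihood ratio test, with the limit, each called these 5 and 56.5% of all genes.

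Among the synthesis genes, Odc1, the first and usually limiting step (chr12:17544794-17551505), was at 114, 117 and 156 CPM in no tumor muscle. KPC muscle held 236, 284, 159 and 253 CPM. The groups did not overlap, but KPC 3 lay only just above the highest no tumor library. The log2 FC was 0.86 ± 0.24 (SE), a 1.81-fold rise with FDR 0.00787.

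Srm, spermidine synthase (chr4:148591503-148594993), stood at 10.8, 11.8 and 10.6 CPM in no tumor muscle and at 20.5, 19.2, 27.7 and 17.7 CPM in KPC muscle. All KPC libraries were above all no tumor libraries, with KPC 3 the highest. The log2 FC was 0.94 ± 0.15 (FDR 0.000209). Sms, spermine synthase (chrX:157443855-157492287), gave another picture, with 72.3, 60.5 and 78.6 CPM in no tumor and 79.6, 78, 43.1 and 71.5 CPM in KPC muscle. These groups overlapped, KPC 3 was the lowest library of all, and the log2 FC of -0.05 (95% confidence interval -0.50 to 0.40, FDR 0.839) did not pass.

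Smox showed the largest difference of the 7 members. Its level was 454, 372 and 528 CPM in no tumor muscle and 60.4, 70.2, 69.1 and 74.2 CPM in KPC muscle. The KPC libraries lay close together and all far under the lowest no tumor library. The log2 FC was -2.72 ± 0.23 (FDR 3.31e-06), a level 6.59-fold lower, which placed Smox 358th from the lowest log2 FC among the 12831 genes.

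Sat1, the acetyltransferase that starts polyamine export and breakdown, was at 12.3, 13 and 9.99 CPM in no tumor muscle and at 44.4, 24.9, 30 and 30 CPM in KPC muscle. Its groups did not overlap, and KPC 1 was the highest. The rise was 2.74-fold (log2 FC 1.45 ± 0.18, FDR 3.76e-05).

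Paox, the oxidase that follows Sat1 (chr7:140115799-140137224), was the least abundant member. Its level was 3.27, 4.04 and 3.33 CPM in no tumor muscle and 5.33, 6.47, 9.08 and 7.6 CPM in KPC muscle, without overlap. The log2 FC was 1.00 ± 0.19 (FDR 0.000683). Exons of Paox share bases with exons of Echs1, an enzyme of fatty acid oxidation, on the opposite strand. The study's methods describe the libraries of both tissues as strand-specific, but the strand setting used for counting is not given in the sources used here. Echs1 had 113 to 148 CPM in no tumor and 226 to 323 CPM in KPC muscle and also rose (log2 FC 1.09 ± 0.14, FDR 5.09e-05), so the rise of Paox is uncertain to the extent that reads of the 2 genes were mixed, which was not tested. No other listed member shared exon bases with a gene that the tables list.

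Azin1, the antizyme inhibitor that protects ornithine decarboxylase from antizyme (chr15:38487427-38519266), was at 30.8, 28 and 27.9 CPM in no tumor muscle. KPC muscle gave 20.9, 23.1, 22.4 and 33.2 CPM. KPC 4 was above every no tumor library and the other KPC libraries were below them, and the log2 FC of -0.22 (95% confidence interval -0.61 to 0.18, FDR 0.307) did not pass.

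**Figure D1:**
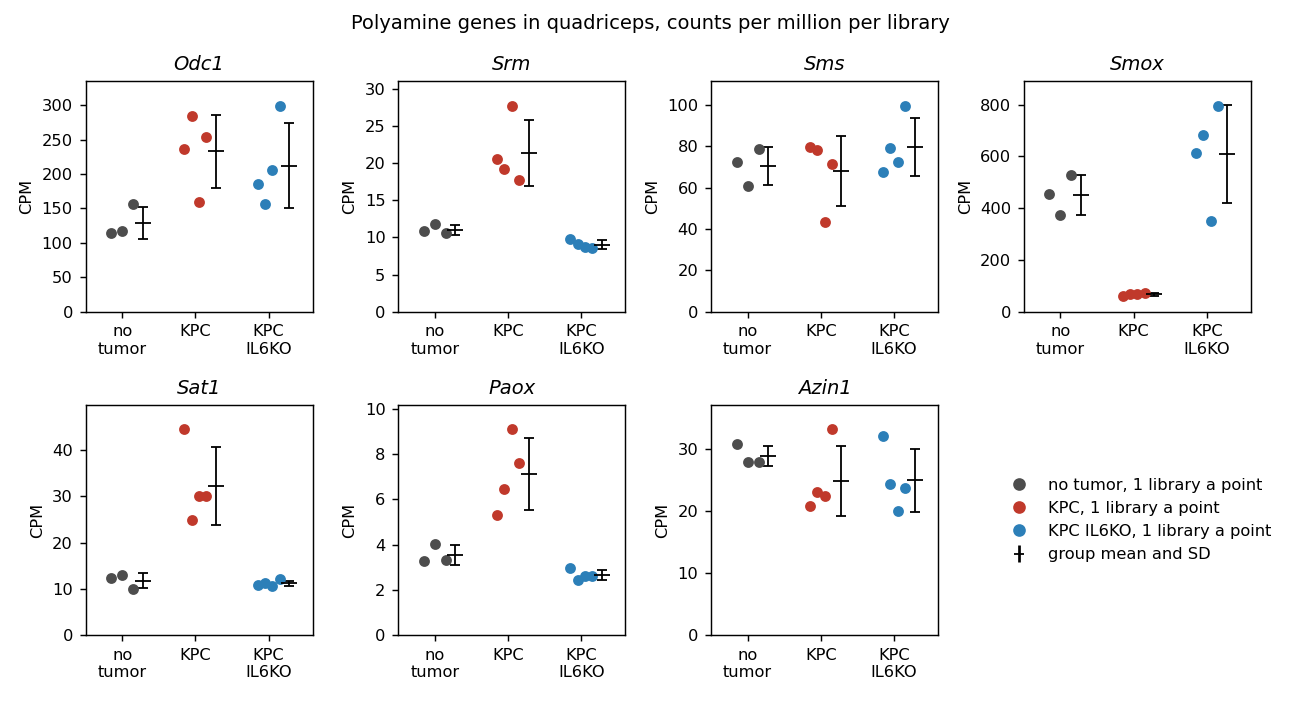
Level of the 7 listed polyamine genes in quadriceps in CPM (vertical axes, each from 0), with 1 point per library and the group mean and SD beside the points for no tumor (3 libraries), KPC (4) and KPC IL6KO (4). Smox sits between 60.4 and 74.2 CPM in KPC and at 349 CPM or more in all other libraries, whereas Srm, Sat1 and Paox are higher in KPC than in every library of the other 2 groups.

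Cell type markers were read in the same KPC against no tumor comparison, where 55.7% of all genes were called (26.7% up, 29% down). The summed level of the 6 muscle markers was 142289 to 179248 CPM in no tumor, 108837 to 128525 in KPC and 163762 to 180294 in KPC IL6KO, and 2 of the 6 fell in KPC. Neutrophil markers had 4 of 6 listed, and all 4 rose in KPC, from a sum of 0.359 to 0.779 CPM to one of 4.5 to 21.8 (2.14 to 4.13 in KPC IL6KO). The no tumor sums rested on few counts, since 3 counts of a gene equal 0.0519 to 0.154 CPM in those libraries. S100a9 and Retnlg reached 0 CPM among the muscle libraries, so the size of the rise is uncertain. Of the 6 macrophage markers 1 rose and 2 fell, with sums of 48.2 to 65.5 CPM in no tumor and 20.8 to 101 in KPC. Of the 6 adipocyte markers 1 fell, with sums of 495 to 2451 CPM in no tumor, 128 to 1618 in KPC and 186 to 591 in KPC IL6KO, and of 6 proliferation markers 3 were listed and 2 of these fell, from 5.89 to 7.33 CPM to 2.06 to 4.63 (8.04 to 11.8 in KPC IL6KO). Their part in the polyamine results was not tested. In whole tissue, fewer cells of a type and less RNA per cell cannot be told apart.

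The second comparison set KPC IL6KO against the same no tumor libraries, to ask whether muscle changed when the tumor cells lacked Il6. No member was called (0 of 7), and edgeR's quasi-likelihood test called 0% of all genes. At an unadjusted p under 0.05 there were 2 members and 887 of all genes, while DESeq2 called 0.725% of genes and the likelihood ratio test 0.74%, with 0 members in either. CPM did not overlap for 2 of the 7 members, Srm and Paox, against 15.5% of all genes.

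Smox in KPC IL6KO muscle was at 613, 682, 349 and 796 CPM. KPC IL6KO 3 was lower than all no tumor libraries and the other 3 were higher, and the log2 FC was 0.43 (95% confidence interval -0.07 to 0.94, FDR 0.821). Odc1 was at 186, 156, 206 and 299 CPM, and the groups overlapped only where KPC IL6KO 2 and no tumor 3 were level. Its log2 FC of 0.72 (95% confidence interval 0.19 to 1.24) had an unadjusted p of 0.0115 and an FDR of 0.484.

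Srm stood at 9.77, 9.13, 8.67 and 8.54 CPM in KPC IL6KO muscle, all below the lowest no tumor library, with a log2 FC of -0.29 (FDR 0.799). Paox, at 2.95, 2.44, 2.64 and 2.62 CPM, was also below all no tumor libraries (log2 FC -0.42, unadjusted p 0.0489, FDR 0.717). Sat1, at 10.8, 11.3, 10.7 and 12.1 CPM, overlapped with no tumor (log2 FC -0.08, 95% confidence interval -0.46 to 0.31). For Sms (67.5, 79.3, 72.2 and 99.5 CPM) and Azin1 (32.1, 24.4, 20 and 23.7 CPM) the groups overlapped as well, with log2 FC of 0.18 (95% confidence interval -0.27 to 0.63) and -0.21 (-0.61 to 0.19).

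The third comparison was between the 2 tumor groups, and it shares its KPC libraries with the first and its KPC IL6KO libraries with the second. Srm, Sat1 and Paox were higher in KPC than in KPC IL6KO and Smox was lower, which makes 4 of 7 members called where 53.6% of all genes were called (26.4% up, 27.3% down). The CPM of the 2 groups did not overlap for these 4, against 62% of all genes. The same 4 members and 68% of all genes passed an FDR of 0.05 at any FC, and DESeq2 and the likelihood ratio test each called these 4 and 54.4% of all genes. The median log2 FC was 0.14 over the members and -0.01 over all genes.

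Smox was 8.91-fold lower in KPC than in KPC IL6KO (log2 FC -3.16, FDR 1.34e-06), 167th from the lowest of all genes. The differences of the genes that were higher in KPC were a log2 FC of 1.24 for Srm (FDR 1.58e-05), 1.53 for Sat1 (FDR 1.21e-05) and 1.42 for Paox (FDR 3.03e-05). Echs1 differed in the same comparison by 1.17 (FDR 1.52e-05).

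Odc1 did not pass between the tumor groups, in contrast to its call against no tumor. Its log2 FC was 0.14 with a 95% confidence interval of -0.34 to 0.61 (FDR 0.595), since KPC (159 to 284 CPM) and KPC IL6KO (156 to 299 CPM) spanned the same range. Sms (log2 FC -0.23, FDR 0.306) and Azin1 (log2 FC -0.01, FDR 0.975) did not pass either.

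Related genes of polyamine metabolism came from a list of 41 genes in 8 groups, of which 30 were listed in quadriceps and 39 in fat. In KPC against no tumor muscle 10 of the 30 rose and 9 fell, against the 26.7% and 29% of all genes given above, and the median log2 FC was -0.06. In KPC IL6KO against no tumor 0 of 30 were called by edgeR's quasi-likelihood test, with 3 at an unadjusted p under 0.05, 1 called by DESeq2 (Slc22a3) and 0 by the likelihood ratio test. In KPC against KPC IL6KO 10 were higher and 9 lower, against 26.4% and 27.3% of all genes.

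Among genes for ornithine and arginine supply, 3 of the 5 listed rose and 1 fell in KPC against no tumor, against 26.7% and 29% of all genes. Oat, ornithine aminotransferase, rose from 224 ± 9.42 to 411 ± 35.7 CPM (log2 FC 0.88, FDR 1.94e-05). The arginine transporters Slc7a1 (log2 FC 1.60, FDR 0.000978) and Slc7a2 (log2 FC 1.83, FDR 0.00563) rose too. Gatm, the creatine synthesis enzyme that yields ornithine, fell from 4.99 ± 0.635 to 1.26 ± 0.664 CPM (FDR 0.000309).

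The supply of S-adenosylmethionine is split between its synthesis and the recycling of its product. Mat2a, the catalytic subunit of methionine adenosyltransferase, fell from 194 ± 9.74 to 72 ± 18.8 CPM (log2 FC -1.43, FDR 6.02e-05). Ahcy, which hydrolyses S-adenosylhomocysteine, rose from 20.8 ± 2.22 to 101 ± 24.2 CPM (log2 FC 2.28, FDR 3.9e-06), and the third listed gene, Mat2b, was not called. Of the 5 genes that salvage methylthioadenosine, the by-product of Srm and Sms, 2 fell, against 29% of all genes. These were Mtap (log2 FC -0.86, FDR 0.00188) and Enoph1 (log2 FC -0.62, FDR 0.00165), and Apip (log2 FC -0.56, FDR 0.000721) stayed under the FC of 1.5. Without KPC 3 the log2 FC of Enoph1 was -0.56, and without KPC 2 that of Apip was -0.61, each on the other side of that FC. So were Enoph1 under DESeq2 and RLE normalization (-0.58 in both) and Apip with at least 10 counts in every library (-0.59).

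Oaz2, an antizyme that targets ornithine decarboxylase for degradation, fell from 138 ± 7.53 to 73.7 ± 11.3 CPM (log2 FC -0.90, FDR 5.4e-05) and was at 152 ± 3.52 CPM in KPC IL6KO. Hypusine, made from spermidine, is a modified lysine of the translation factor Eif5a. Of 4 genes of this pathway 2 rose, against 26.7% of all genes, namely Eif5a (log2 FC 0.76, FDR 0.00178) and Dhps, deoxyhypusine synthase (log2 FC 0.94, FDR 2.36e-05). Sat2, the only listed gene of the further breakdown enzymes, had a log2 FC of -0.05 (FDR 0.858).

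All 6 listed genes of polyamine transport were called in KPC against no tumor, 2 up and 4 down, where 55.7% of all genes were called. Atp13a3, a polyamine transporter, rose (log2 FC 1.57, FDR 0.00148), as did Slc3a2 (log2 FC 1.14, FDR 6.05e-05), the heavy chain shared by several amino acid exchangers. Those that fell were the lysosomal exporter Atp13a2 (log2 FC -0.76), the vesicular transporter Slc18b1 (log2 FC -2.33) and the organic cation transporters Slc22a3 (log2 FC -2.25) and Slc47a1 (log2 FC -0.95), with FDR between 0.000199 and 0.023. Slc22a3 rested on low counts, its groups overlapped, and its fall did not pass without no tumor 2 (log2 FC -1.42, FDR 0.0782). Slc47a1 did not pass without no tumor 3 or without KPC 1 (log2 FC -0.82 in both), and Atp13a2 fell under the FC of 1.5 without KPC 3 (log2 FC -0.58).

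Among the regulators, Myc, a transcription factor for which Odc1 is a textbook target, rose from 6.82 ± 1.66 to 25 ± 12.3 CPM (log2 FC 1.87, FDR 0.00239). Its partner Max rose as well (log2 FC 0.97, FDR 0.000352), while Mxi1, which competes for Max, had a log2 FC of -0.54 (FDR 0.00458) and did not reach the FC of 1.5. In KPC against KPC IL6KO, Myc (log2 FC 2.05, FDR 0.000632) and Max (log2 FC 1.14, FDR 5.84e-05) were higher and Mxi1 was lower (log2 FC -0.62, FDR 0.00112). Mxi1 did not reach the FC of 1.5 in that comparison without KPC 3 (log2 FC -0.53) or KPC IL6KO 3 (-0.58), and against no tumor it did without KPC 2 (-0.67). While Myc and Odc1 both rose in KPC muscle, in KPC IL6KO against no tumor muscle the log2 FC was -0.18 for Myc and 0.72 for Odc1, neither called. In KPC against no tumor fat it was 2.11 for Myc (FDR 0.311) and -0.17 for Odc1 (FDR 0.72). A link between the 2 genes was not tested.

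Several of these genes were also called between the 2 tumor groups. Oat (log2 FC 0.72), Slc7a1 (2.19), Slc7a2 (1.14), Ahcy (1.91), Eif5a (0.72), Dhps (0.77), Atp13a3 (1.40) and Slc3a2 (0.95) were higher in KPC than in KPC IL6KO on the log2 scale. Gatm (log2 FC -1.14), Mat2a (-1.12), Mtap (-0.81), Enoph1 (-0.80), Oaz2 (-1.05), Atp13a2 (-0.91), Slc18b1 (-1.85) and Slc47a1 (-1.10) were lower. Slc7a2 passed narrowly (FDR 0.0329), its groups overlapped, and it did not pass without KPC 2 (log2 FC 0.69), KPC 4 (0.96) or any 1 of the 4 KPC IL6KO libraries (1.00 to 1.21). Eif5a did not reach the FC of 1.5 without KPC 3 (log2 FC 0.55), while Slc22a3 (log2 FC 0.01, FDR 0.989) was not called.

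**Figure D2:**
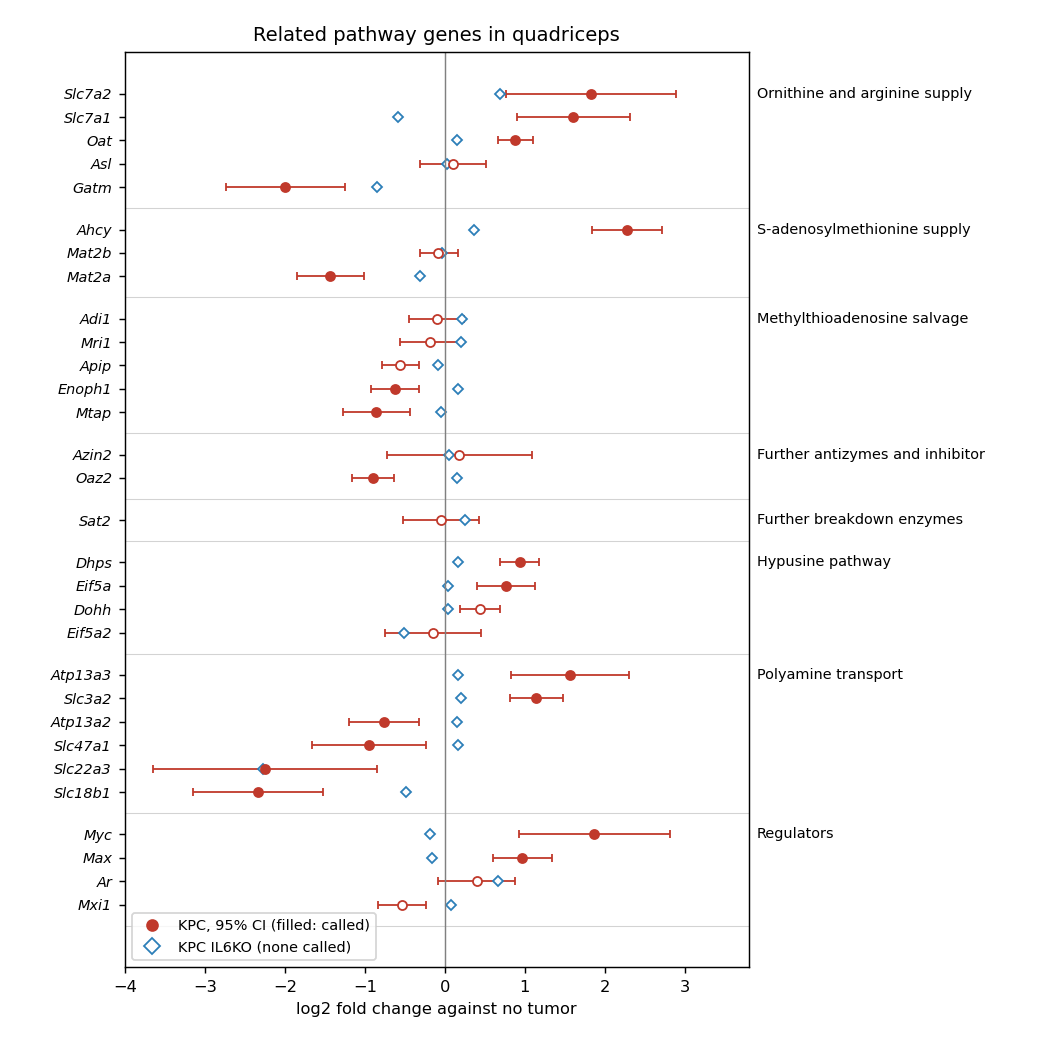
Log2 fold change against no tumor (horizontal axis) of the 30 related pathway genes listed in quadriceps, in their 8 groups, for KPC (circles with 95% confidence interval, filled where called) and KPC IL6KO (open diamonds, none called). Of the 30 genes 10 are called up and 9 down in KPC, from -2.33 for Slc18b1 to 2.28 for Ahcy.

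Epididymal fat had totals of 26306377 to 56308545 counts a library, and its libraries differed in makeup within the no tumor and KPC IL6KO groups. Gpx5, a marker of the epididymis, which lies beside this fat pad, ranged from 4.69 to 85.8 CPM in 5 libraries and from 21347 to 54957 CPM in the other 7 (no tumor 5 and 7, all 4 KPC and KPC IL6KO 6). The sum of 19 listed epididymis markers was 13668 to 115663 CPM in no tumor, 48067 to 82422 in KPC and 827 to 114766 in KPC IL6KO. The biological coefficient of variation was 63.5% in fat and 22.7% in quadriceps.

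Adipocyte markers, all 6 listed, summed to 1467 to 24617 CPM in no tumor, 2190 to 9956 in KPC and 4298 to 16132 in KPC IL6KO. Macrophage markers, also 6 of 6, summed to 129 to 415 CPM in no tumor, 493 to 801 in KPC and 221 to 1223 in KPC IL6KO. Proliferation markers, 6 of 6, summed to 45.6 to 114, 201 to 561 and 42.5 to 815 CPM, and neutrophil markers, 5 of 6, to 3.09 to 6.57, 23 to 56 and 4.39 to 58.9 CPM in the same order. The 6 muscle markers summed to 12.7 to 268, 9.46 to 11.4 and 93 to 2192 CPM, and the 3 listed of 6 exocrine and gastric markers to 7.94 to 17.7, 19.2 to 88 and 7.65 to 57.5 CPM. In KPC the macrophage, proliferation, neutrophil and exocrine and gastric sums lay above all no tumor libraries and the muscle sum below them, while the adipocyte sums overlapped. None of these markers was called in fat, where edgeR's quasi-likelihood test called 0% of all genes. Their part in the polyamine results in fat was not tested.

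Per length, Sat1 was the most abundant member in no tumor fat, at 140 ± 31.8 CPM per kilobase (n = 4), followed by Odc1 at 49.9 ± 7.49, Azin1 at 25.6 ± 5.14, Srm at 21.2 ± 3.7, Smox at 7.29 ± 0.899, Paox at 1.72 ± 0.577 and Sms at 1.34 ± 0.592. Azin1 and Srm, and Paox and Sms, lay within 1 SD of each other. Smox, first in no tumor muscle, was thus near the lower end in fat, and Sat1 was next to last in muscle and first in fat. The tissues were normalized separately, so only the order within each is read.

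In fat none of the 7 members was called in any of the 3 comparisons, and edgeR's quasi-likelihood test called 0% of all genes in each. At an unadjusted p under 0.05 there were 0 members and 2061 genes in KPC against no tumor, 1 member and 1584 genes in KPC IL6KO against no tumor, and 0 members and 1062 genes in KPC against KPC IL6KO. DESeq2 called 3.45%, 1.68% and 0.737% of all genes and the likelihood ratio test 2.43%, 1.23% and 0.389%, with 0 members in any. The CPM of a pair of groups did not overlap for 0 of 7 members, against 10.9%, 2.01% and 4.33% of all genes. The median log2 FC in KPC against no tumor was -0.14 over the members and -0.10 over all genes.

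Smox in fat was at 28.3, 24.6, 33.1 and 27.6 CPM in no tumor, at 22.9, 23.6, 27.2 and 29.4 in KPC and at 25.6, 25.4, 30.2 and 32.9 in KPC IL6KO. The 3 groups overlapped throughout. The log2 FC of KPC against no tumor was -0.14 with a 95% confidence interval of -0.48 to 0.20 (FDR 0.726).

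Sat1 ranged widely, from 281 to 478 CPM in no tumor, 266 to 343 in KPC and 140 to 488 in KPC IL6KO. Both the lowest and the highest library were KPC IL6KO (replicates 5 and 7). The log2 FC was -0.33 in KPC (95% confidence interval -1.05 to 0.39, FDR 0.705) and -0.43 in KPC IL6KO (-1.16 to 0.29, FDR 0.671).

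Paox was at 6.06, 11.3, 5.98 and 10.4 CPM in no tumor, 12.9, 12.2, 10.5 and 13.6 in KPC and 24.8, 8.78, 14.9 and 14.2 in KPC IL6KO. In KPC only the lowest library lay within the no tumor range (log2 FC 0.54, 95% confidence interval -0.18 to 1.27, FDR 0.56). It was the only member with an unadjusted p under 0.05, in KPC IL6KO against no tumor (log2 FC 0.89, 95% confidence interval 0.16 to 1.62, p 0.0214, FDR 0.458). Without KPC IL6KO 5, the highest library, the log2 FC was 0.58. Echs1 had log2 FC of -0.11 in both tumor groups against no tumor in fat (FDR 0.891).

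Odc1 lay between 115 and 216 CPM in all 12 fat libraries (KPC log2 FC -0.17, FDR 0.72). Srm was at 25.9, 34.2, 35.3 and 40.2 CPM in no tumor, 36.4, 28.4, 37 and 35.7 in KPC and 58.8, 27.6, 52.1 and 42.9 in KPC IL6KO, with log2 FC of 0.02 (FDR 0.981) and 0.42 (FDR 0.615). Sms was at 4.83 to 12.4 CPM in no tumor, 7.41 to 18.1 in KPC and 6.65 to 30.8 in KPC IL6KO. Its log2 FC was 0.53 (FDR 0.698) in KPC and 1.08 (95% confidence interval -0.04 to 2.20, FDR 0.551) in KPC IL6KO, the latter 0.62 without KPC IL6KO 5. Azin1 was at 132 to 206 CPM in no tumor, 100 to 144 in KPC and 110 to 205 in KPC IL6KO, with a log2 FC of -0.43 in KPC (95% confidence interval -0.92 to 0.06, FDR 0.487).

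Between the 2 tumor groups in fat, the log2 FC of the members ran from -0.55 for Sms to 0.10 for Sat1, and their FDR from 0.883 to 0.986. Of the related genes, 0 of 39 were called in each fat comparison, with 5, 7 and 2 at an unadjusted p under 0.05. Ahcy had the lowest FDR among them in KPC against no tumor (log2 FC 1.04, FDR 0.191).

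**Figure D3:**
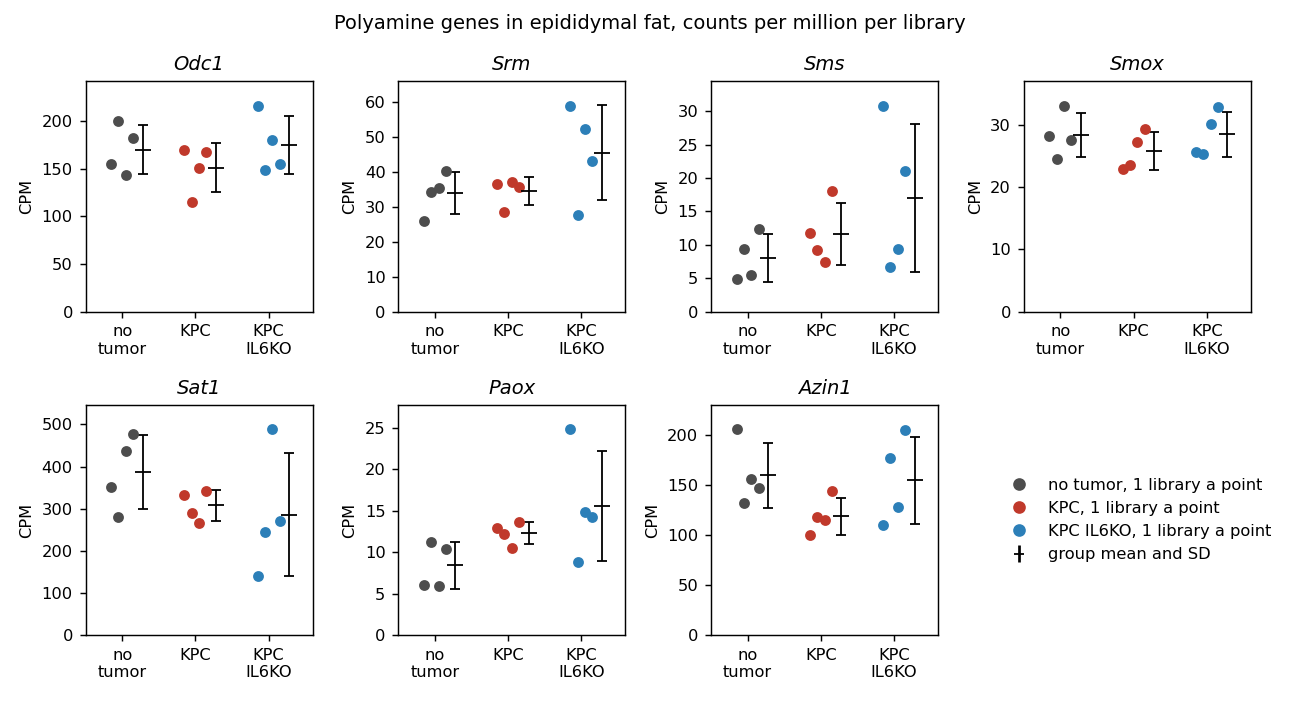
Level of the 7 listed polyamine genes in epididymal fat in CPM (vertical axes, each from 0), with 1 point per library, 4 libraries a group, and the group mean and SD. The groups overlap for every gene, and KPC IL6KO 5 is the highest library for Srm, Sms and Paox (58.8, 30.8 and 24.8 CPM) and the lowest for Sat1 (140 CPM).

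Oaz3, an antizyme of the testis, and Azin2, a relative of the antizyme inhibitor, were among the related genes in fat. Oaz3 ranged from 0.147 CPM in KPC IL6KO 5 to 255 CPM in no tumor 8, and Azin2 from 6.28 to 52.5 CPM in the same libraries. Over the 12 fat libraries, on the scale of log2(CPM + 1), Oaz3 went with the summed level of 6 sperm genes (Prm1, Prm2, Tnp1, Tnp2, Odf1 and Smcp, chosen after the values were seen), with Pearson's r of 0.994 and Spearman's rho of 0.958. Azin2 gave 0.913 and 0.951. Without KPC IL6KO 5 and no tumor 8, the 2 libraries farthest from the median of the sum, r was 0.971 for Oaz3 and 0.851 for Azin2. The points share each library's depth and makeup, and neither gene was called in any fat comparison.

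**Figure D4:**
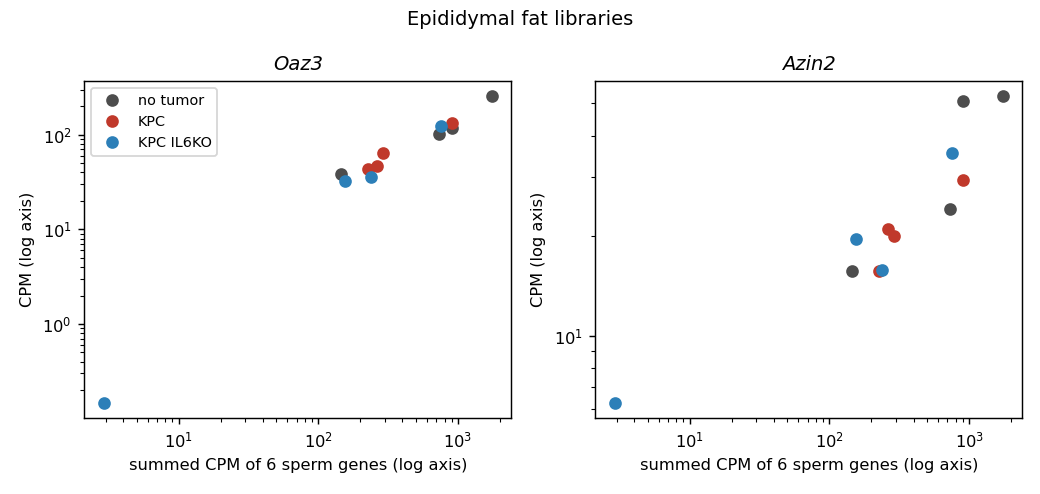
Level of Oaz3 (left) and Azin2 (right) in CPM against the summed CPM of 6 sperm genes, both on log axes, with 1 point per epididymal fat library colored by group. KPC IL6KO 5 lies lowest on both axes and no tumor 8 highest, and the 3 groups are interspersed between them.

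Whether the change in KPC mice differed between muscle and fat was tested directly, as the log2 FC in quadriceps minus that in fat, over 12599 genes and all 23 libraries. The 2 tissues were normalized together in this fit, so its values depart somewhat from the differences of the log2 FC given above. The difference passed an FDR of 0.05 for 4 of the 7 members and for 38.6% of all genes. Smox differed by -2.69 ± 0.29 on the log2 scale (SE, FDR 2.65e-06) and Sat1 by 1.68 ± 0.41 (FDR 0.00308). Odc1 differed by 0.92 ± 0.32 (FDR 0.0271) and Srm by 0.82 ± 0.30 (FDR 0.0377). Sms (-0.65, FDR 0.384), Paox (0.36, FDR 0.496) and Azin1 (0.09, FDR 0.817) did not pass. The differences of Smox and Sat1 passed without any 1 library. Odc1 and Srm both failed without quadriceps no tumor 1 (FDR 0.0722 and 0.0748), quadriceps no tumor 2 (0.0689 and 0.054) or fat KPC 6 (0.0577 and 0.0762). Odc1 also failed without quadriceps KPC 2 (FDR 0.0551). Srm also failed without quadriceps no tumor 3 (FDR 0.0778), quadriceps KPC 3 (0.0863), fat no tumor 7 (0.059), fat no tumor 8 (0.0795) or fat KPC 8 (0.0545). For KPC IL6KO against no tumor the difference passed for 0 of 7 members and 0% of all genes by the same test.

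**Figure D5:**
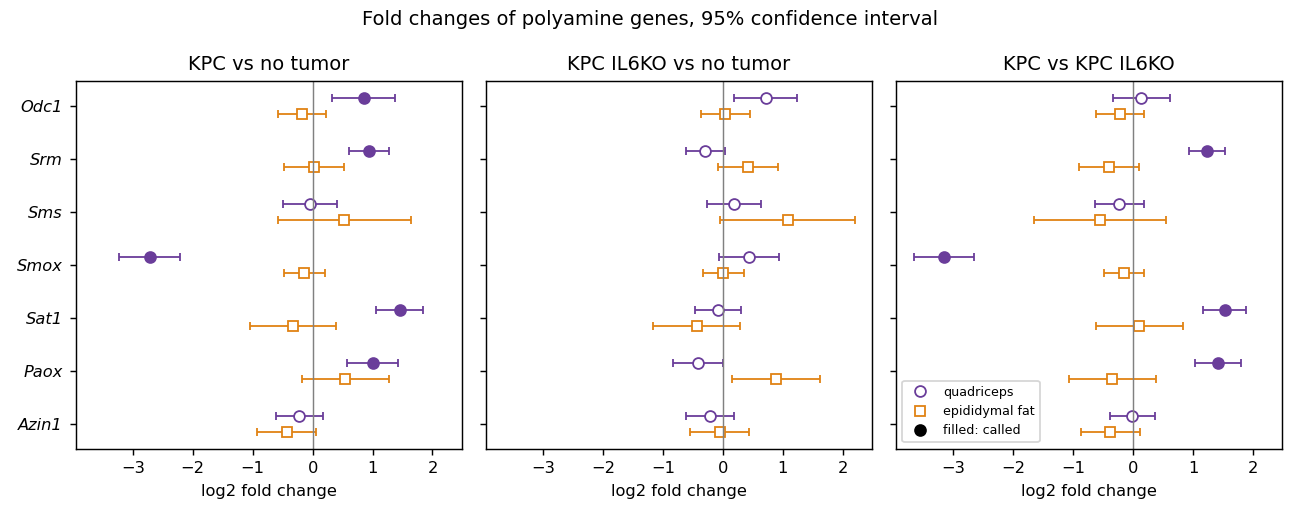
Log2 fold change of the 7 listed polyamine genes (horizontal axes) with 95% confidence interval in quadriceps (circles) and epididymal fat (squares) for the 3 comparisons, filled where called. In KPC against no tumor Smox lies at -2.72 in quadriceps and at -0.14 in fat, Sat1 at 1.45 and -0.33, and no fat value is called.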

How the data were processed

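RNA-seq gave 23 libraries, which were grouped by tissue and tumor from their titles. RNA isolation and sequencing were done separately for the 2 tissues. Per the labels and the study's methods, the authors checked reads with FastQC, aligned them with STAR to mm10, kept uniquely mapped reads and counted them per gene with featureCounts 1.5.1. They deposited 1 table of raw counts per tissue, not normalized. Their own test used edgeR 3.12.1. The study's methods name a different library kit and RNA input for each tissue, and the kit named in the labels differs from those. A no tumor muscle library that the authors removed was not analysed here.

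The work was done in R (version 4.3.3), using the packages edgeR (4.0.16), DESeq2 (1.42.0) and, beneath edgeR, limma (3.58.1), and figures were drawn with Python 3.11.15 and matplotlib 3.10.9. Counts were TMM-normalized, filterByExpr removed 0 genes, and edgeR's quasi-likelihood test used 1 model per tissue holding its 3 groups. SE is the absolute log2 FC over the root of F, and confidence intervals are at 95%. CPM per kilobase divides by the union of a gene's annotated exons. The difference between tissues was an interaction in 1 fit of 23 libraries, normalized together and treated as independent. Any animal shared by a muscle and a fat library is not known and was not modelled. P-values measure the spread between libraries, which within a tissue were taken from separate animals per the study's methods. Intervals and the limit of 3 counts cover counting error and this spread only.

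The members and gene lists were chosen with earlier results of these data known. All members are named, and a related gene is named if called in KPC muscle or if it has the lowest FDR of its group. The sperm marker list, Echs1 and the split by Gpx5 were chosen after values were seen. Alternatives were DESeq2, the likelihood ratio test, the newer quasi-likelihood form, no filter or a minimum of 10 counts per library, a model of the compared groups alone, RLE normalization, a replicate block, Gpx5 and Crisp1 as covariates in fat, and leaving out each library. Libraries of 1 group were never alike within counting noise (chi-square per degree of freedom at least 28.9 in quadriceps and 84.7 in fat). Fits were tested on simulated counts. Of the 10 members 8 matched the RefSeq promoter table. The check of the targeted gene was not possible in these tissues, since the edit was in the tumor cells.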

Additional observations from a re-analysis of the deposited data

Results flagged for a closer look

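The change in KPC mice differed between quadriceps and fat for 4 members in the direct test, by 0.92 (Odc1), 0.82 (Srm), -2.69 (Smox) and 1.68 (Sat1) on the log2 scale. They are listed because the effect of the same tumor differed between tissues, as it did for 38.6% of all genes. The differences of Smox and Sat1 passed without any 1 library, whereas that of Odc1 failed in 4 and that of Srm in 8 of the fits that left out 1 library. Muscle and fat were extracted and sequenced separately, with a different library kit for each per the study's methods. The fat libraries carried varying amounts of epididymis transcripts.

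Among fat libraries, Srm in KPC 6 was at 28.4 CPM, apart from the other 3 KPC libraries, of which the nearest was at 35.7 CPM. The gap was 0.848 of the range of the group. Of 35 groups of 4 libraries examined this was the only one, and about 1 in 20 would stand out by chance.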

How the results depend on the processing

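The counts of polyamine genes called in quadriceps (5, 0 and 4) and fat (0 in each comparison) were the same under every alternative run, and in quadriceps the called members were the same genes each time. With a replicate block the counts were again 5, 0 and 4 in quadriceps and 0 in fat, and the log2 FC of Odc1 in KPC against no tumor was 0.75 (FDR 0.0222). Replicate numbers name different mice. Deviations from group means of same-numbered libraries correlated between -0.155 and 0.265 in quadriceps (over 0.1 in 2 of 10 pairs) and between -0.539 and 0.65 in fat (7 of 12), so the numbers were not treated as pairs. The 4 members whose change differed between tissues ranged from 2 to 4 over fits that left out 1 library, and were 4 under the other tests and RLE.

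Signs that reversed belonged to values that were not called. Between the tumor groups in quadriceps Azin1 was 0.01 under DESeq2 and RLE, and Slc22a3 was -0.01 with at least 10 counts in every library, -0.02 with only the compared groups and -0.42 with the replicate block. In fat, KPC IL6KO against no tumor, Smox was -0.02 under DESeq2, RLE and the filter of 10 counts. With Gpx5 and Crisp1 as covariates Odc1 was -0.10 and Azin1 0.19 in that comparison, and Odc1 was 0.02, Sms 0.43 and Paox 0.36 in KPC against KPC IL6KO. The cause was not tested.

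Leaving out 1 library at a time, log2 FC spanned 0 in quadriceps for Sms (-0.15 to 0.12) and Sat2 (-0.16 to 0.11) in KPC against no tumor, Sat1 (-0.18 to 0.00) in KPC IL6KO against no tumor, and Azin1 (-0.18 to 0.14) and Slc22a3 (-0.45 to 0.33) between the tumor groups. In fat it did so for Srm (-0.09 to 0.11) in KPC and Azin1 (-0.21 to 0.10), Odc1 (-0.07 to 0.13) and Smox (-0.07 to 0.09) in KPC IL6KO against no tumor, and for Sat1 (-0.12 to 0.52) between the tumor groups.

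In quadriceps, Slc47a1 in KPC against no tumor (-0.92, FDR 0.0578) and Slc7a2 in KPC against KPC IL6KO (1.11, FDR 0.0606) did not pass with only the compared groups, nor did Slc7a2 with the replicate block (0.97, FDR 0.0951). Related genes called went from 0 to 2 in fat under DESeq2 and the likelihood ratio test, Arg1 and Ahcy in KPC and Arg1 and Slc7a2 in KPC IL6KO against no tumor, and Arg1 and Ahcy were also called with only the compared groups in the fit. Each member had at least 65 counts in every library, but with 3 or 4 mice a group and a coefficient of variation of 63.5% the intervals in fat are wide.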

Other observations

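The levels of the polyamine genes in fat were set beside Gpx5, the epididymis marker, with a split at 1000 CPM of Gpx5 chosen after the values were seen. In the 5 libraries under it and the 7 above it, Odc1 was at 155 to 216 against 115 to 170 CPM, Srm at 34.2 to 58.8 against 25.9 to 37, Sms at 9.38 to 30.8 against 4.83 to 18.1 and Paox at 10.4 to 24.8 against 5.98 to 13.6 CPM. Smox was at 24.6 to 32.9 against 22.9 to 33.1 CPM, Sat1 at 140 to 488 against 246 to 438 and Azin1 at 110 to 205 against 100 to 206 CPM. All 4 KPC libraries were on the high side of the split.

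Arg1, the arginase that makes ornithine, was at 0.581 to 7.53 CPM in no tumor fat, at 97.4 to 281 CPM in KPC fat and at 117, 7.1, 35.9 and 1190 CPM in KPC IL6KO fat, where KPC IL6KO 8 alone carries most of the group's mean. The log2 FC was 6.24 (FDR 0.225) in KPC and 7.15 (FDR 0.385) in KPC IL6KO by edgeR's quasi-likelihood test, which called neither.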
